A study of Mus musculus with 20 samples.

Results

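The genes described here are those for the nuclear-encoded subunits of the oxidative phosphorylation machinery and for a few of its assembly factors, measured in ovalbumin-specific mouse CD8+ T cells taken from 4 sites during acute graft-versus-host disease (GVHD). They were chosen by symbol: every gene whose name starts with Ndufa, Ndufb, Ndufc, Ndufs, Ndufv, Sdh, Uqcr, Cox4, Cox5, Cox6, Cox7, Cox8 or Atp5. Of the 20886 mouse genes with a named probe on the arrays, 97 carry such a symbol, and 89 of them entered the tests because their brightest probe exceeded background clearly, by the scanner's flag for this, on 4 or more of the 5 arrays of some site. Of these 97 genes, 85 code for subunits and 12 for assembly factors. The rule uses names and detection only, though it was set with earlier results of these data known.

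The recipients were female mice of the line m-act OVA, whose full name is C57BL/6-Tg(CAG-OVA)916Jen, aged 8 to 16 weeks, in which a CAG promoter drives ovalbumin. All of them received 11 Gy of total body irradiation, given as 2 doses of 5.5 Gy, and then bone marrow and splenocytes from OT-I donors, C57BL/6-Tg(TcraTcrb)1100Mjb, whose T cell receptor recognises an ovalbumin peptide. On day 4 CD45.1+ cells were positively selected on magnetic columns from liver, lung, small intestine and peripheral blood, and their RNA was amplified over 2 rounds and hybridised to 1-colour Agilent arrays, 5 arrays for each site. No array comes from T cells of a mouse without disease, so every comparison here is between sites of diseased recipients, with blood as the site of reference. No label says which animal an array came from, and the p-values therefore measure the spread between these arrays.

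Oxidative phosphorylation takes electrons from NADH through complex I and from succinate through complex II to ubiquinone, from there through complex III and cytochrome c to complex IV, and uses the proton gradient built on the way to make ATP at complex V. Most subunits are nuclear genes imported into the mitochondrion, whereas a small core is encoded by mitochondrial DNA, for which the arrays have no named probe. Naive and memory CD8+ T cells draw much of their ATP from this machinery, and effector cells combine it with a high rate of glycolysis.

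Signals are given as the log2 of the background-subtracted processed signal minus the log2 of the array's 75th percentile, so that 0 is the 75th percentile and a difference of 1 is a doubling. That percentile ranged from 823 to 2845 signal units over the 20 arrays, and from 22.6% to 38.7% of the probes were well above background. The labelled cell type was checked on 15 tested CD8 T cell genes, whose mean level was 4.61 to 4.93 on the blood arrays, 4.85 to 5.04 in liver and 4.18 to 4.78 in lung, but 3.29 to 5.20 in the small intestine. Arrays 5 of liver and small intestine went against their labels in the genes of Paneth cells, the defensin-secreting cells of the intestinal crypt. The mean of 5 such genes was 4.48 on liver array 5, against -2.25 to -1.81 on the other liver arrays, and -3.06 on small intestine array 5, against 2.44 to 7.24 on the other intestinal arrays. The medians of the respiratory genes in liver and small intestine against blood are given with and without these arrays. So are the counts of respiratory genes passing in the small intestine and some of the named genes. Other results include both arrays, among them those by complex, by brightness and by separation of groups, the F-test and the other gene lists. In lung, the mean of 12 alveolar macrophage genes was -1.76 to 5.49, against -2.80 to -1.35 in blood.

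The respiratory genes were close to the same in liver and blood. In lung and small intestine they were lower on average, at the main scaling by about as much as all genes tested. This likeness depends on the normalization, the filter and the brightness of the genes compared, as the medians below show. The median difference of the 89 genes from blood was 0.06 in liver cells, -0.25 in lung cells and -0.34 in small intestine cells. The same medians over all 8057 genes tested were 0.05, -0.30 and -0.36. Scaled on the probes detected everywhere (6836 probes marked as well above background on each array), the 3 medians of the 89 genes became -0.12, -0.43 and -0.29. Those of all genes became -0.13, -0.48 and -0.32, so the sign for liver depends on the scaling. This scaling shifts all genes of an array alike, so it cannot change the distance between these medians. Quantile normalization can change it. It gave medians of -0.09, -0.35 and -0.28 for the 89 genes, against -0.01, -0.23 and -0.22 for all genes. The brightest of 4 bins of all genes by mean signal held 67 of the 89. At the main scaling these 67 had medians of -0.20 in lung and -0.31 in small intestine. All genes of that bin had -0.07 and -0.17. With no filter on dim probes the respiratory genes had -0.23 and -0.33 at these sites. All genes, then including those not above background, had 0.44 and 0.13. Without arrays 5 of liver and small intestine the medians of the 89 genes were 0.09 in liver and -0.36 in the small intestine. Those of all genes tested were then 0.04 and -0.42. After Benjamini-Hochberg adjustment over all genes in limma, 2 of the 89 genes (2.25%) fell in the small intestine, Ndufs1 and Ndufaf2, where 10.8% of all genes were called in either direction and 9.92% were lower. None of the 89 passed in the other comparisons. In liver against blood none passed, with 0% of all genes called. There 225 of all genes and no respiratory gene had an unadjusted limma p under 0.05. In lung against blood none passed, with 0.819% of all genes called, and 12 of the 89 (13.5%) had an unadjusted limma p under 0.05, against 33.8% of all genes. In small intestine against blood these shares were 16.9% and 32.8%. A limma F-test over the 4 sites passed for none of the 89 and for 0.757% of all genes, and the lowest adjusted p of a respiratory gene in it was 0.076, for Ndufs1.

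**Figure D1:**
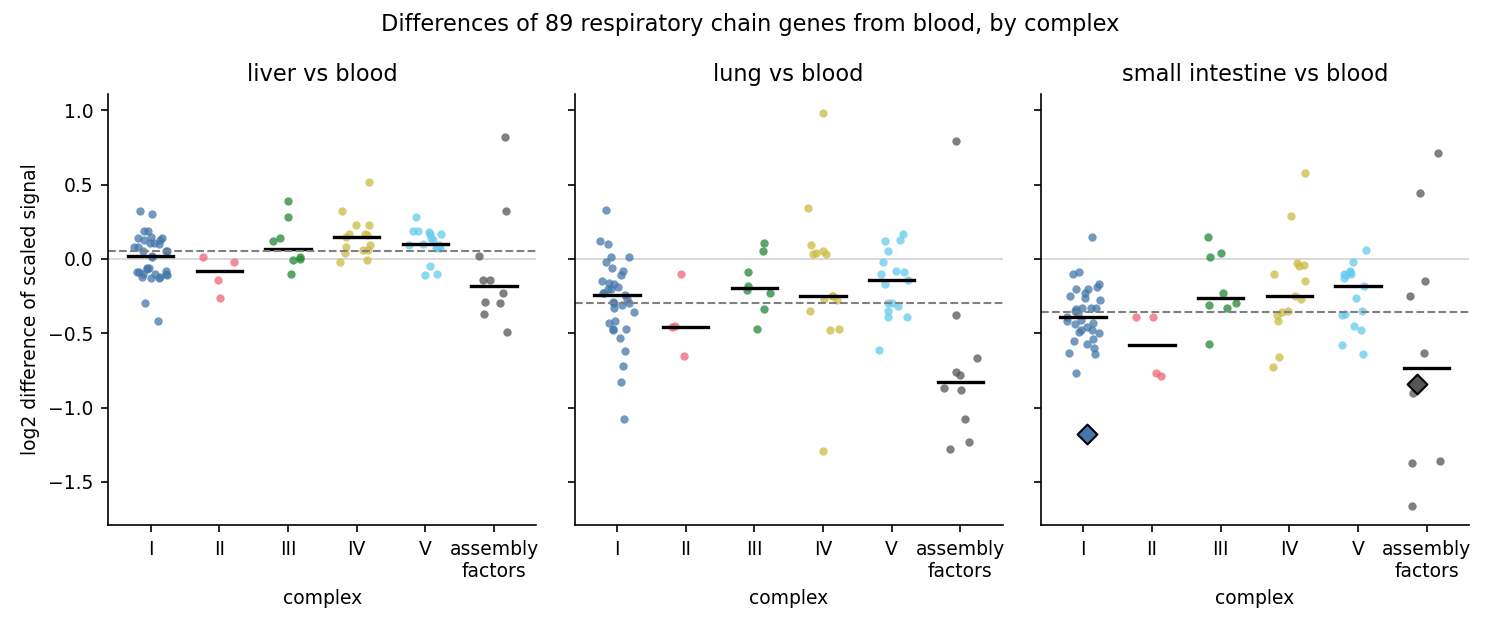
Each point is 1 of the 89 genes, placed by its log2 difference from blood (vertical axis) and by complex (subunits only) or among the 10 assembly factors, in liver, lung and small intestine. Black bars are the medians of each column, the dashed line is the median of all 8057 genes (0.05, -0.30 and -0.36), and diamonds mark Ndufs1 and Ndufaf2, the 2 genes past the threshold.

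Most differences in these genes were small, and their spread was by the median less than that of all genes. The median residual SD was 0.40 for the 89 genes and 0.56 for all genes. Within the small intestine the median SD was 0.55 and 0.62. Of the 89 genes 67 were in the brightest of 4 bins of all genes by mean signal. The part of brightness in the spread was not tested. The 95% confidence interval of the difference lay within a doubling or a halving for 77 of the 89 genes in liver against blood (86.5%), against 51.3% of all genes. In lung against blood this held for 62 of the 89 (69.7%, against 27.4%), and in small intestine against blood for 55 (61.8%, against 25.4%).

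Complex I, the NADH dehydrogenase, had 35 tested subunits and 7 tested assembly factors. The median difference of its subunits was 0.02 in liver, -0.24 in lung and -0.39 in the small intestine. In the small intestine 34 of the 35 were below 0, and 1 passed the test. Ndufs1 codes for the largest subunit of the complex, an iron-sulfur protein of the peripheral arm on the path of electrons from NADH. Its signal was 2.62, 2.68, 3.07, 2.70 and 2.86 on blood arrays 1 to 5. The liver arrays gave 2.51, 2.58, 2.35, 2.17 and 2.23. The lung arrays gave 2.38, 2.19, 1.05, 0.95 and 1.96. All 5 blood arrays were above each of these 10 arrays. The small intestine arrays gave 1.61, 1.49, 2.02, 0.57 and 2.35, which again lie below every blood array. The difference was -1.18 (SE 0.31; limma adjusted p = 0.028), 2.26-fold lower than in blood, and lower on all 5 slides. Against blood it was -1.08 in lung (SE 0.31; limma adjusted p = 0.099) and -0.42 in liver (SE 0.31; limma adjusted p = 1). Leaving out arrays 5 of liver and small intestine gave -1.36 in the small intestine (limma adjusted p = 0.007), so the call does not rest on them. It does rest on other arrays and on the scaling: the adjusted p was 0.092 when arrays were scaled on the 6836 probes that this flag marks on every array, and 0.071 without small intestine array 4, the lowest of the group. With each of the 20 arrays left out in turn it passed 14 times.

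Separation of the groups was not frequent among these genes. Besides Ndufs1, no respiratory gene had all its small intestine arrays below all blood arrays, 1.12% of the 89 against 7.81% of all genes. In liver Ndufs1 was again the only one, 1.12% against 0.794%. In lung against blood 5 genes were separated in this way, Ndufs1, Ndufaf1, Ndufaf2, Ndufaf8 and the complex II subunit Sdhd, which is 5.62% against 6.01% of all genes. Of these, Ndufaf8 was well above background on only 2 lung arrays, against 4 in blood. It entered the tests through blood and liver only, so its separation is limited by the background.

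The other subunits of complex I differed less. Ndufv1, which carries the flavin that accepts electrons from NADH, gave 4.45, 4.95, 5.68, 5.73 and 5.26 in blood and 4.34, 4.09, 5.68, 4.07 and 4.76 in the small intestine. The groups overlap, and the difference was -0.63 (SE 0.33; limma adjusted p = 0.18). Ndufs5, an accessory subunit, had a difference of -0.57 in the small intestine (SE 0.19; limma adjusted p = 0.059) and was lower than blood on all 5 slides. Ndufs8, another iron-sulfur subunit, had a difference of -0.53 in lung (SE 0.20; limma adjusted p = 0.12). Ndufab1, the mitochondrial acyl carrier protein, ranged from 1.65 to 2.36 in blood and from 0.55 to 1.94 in the small intestine. Ndufb5, a membrane arm subunit, had liver signals of 4.57 to 5.47 that overlapped the blood signals of 3.37 to 5.29. Ndufa11, a membrane arm subunit as well, stayed between -0.72 and 0.27 on all 20 arrays.

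Assembly factors stood lower than the subunits in the organs, as a description. Their median difference from blood was -0.19, -0.83 and -0.73 in liver, lung and small intestine, over 10 genes, against 0.08, -0.23 and -0.33 over the 79 subunits. They were dimmer: 1 of the 10 tested assembly factors, Ndufaf7, and 66 of the 79 tested subunits were in the brightest of 4 bins of all genes by mean signal, and the part of brightness in the difference was not tested. They were also less often detected: of the 12, 10 were well above background on at least 4 arrays in blood and 10 in liver, but 7 in lung and 5 in the small intestine. Ndufaf3, Ndufaf8 and Sdhaf2 reached 4 arrays in blood and liver only, and Ndufaf1 and Ndufaf6 at every site but the small intestine. The filter thus kept these genes through sites where they were higher, which by itself favours low medians in the remaining sites. The part of the filter in the medians was not tested. Assembly factors are helpers that build the complex and are not part of the finished enzyme. Ndufaf2 is a chaperone that binds late assembly intermediates of complex I. Its blood signals were 3.17, 3.34, 3.45, 3.51 and 3.51. The small intestine gave 2.43, 2.24, 3.37, 2.05 and 2.69, where array 3 alone reached the blood range and the other 4 arrays lay below it. The difference was -0.84 (SE 0.25; limma adjusted p = 0.041), or 1.79-fold, and it was lower on all 5 slides. Without arrays 5 of liver and small intestine it was -0.88 (limma adjusted p = 0.022). It did not pass when arrays were scaled on the probes detected everywhere (limma adjusted p = 0.10), after quantile normalization (0.077), or without small intestine array 2 (0.12). With each of the 20 arrays left out in turn it passed 10 times and missed 10 times, also without liver array 1 or 2 or lung array 2. In lung its signals of 2.75, 2.72, 3.13, 2.86 and 2.20 were all below those of blood, with a difference of -0.67 (SE 0.25; limma adjusted p = 0.12).

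Ndufaf1, which takes part in an early membrane intermediate of complex I, had the lowest difference of all 89 genes in the small intestine. Its signals were 1.35, 1.66, 2.04, 2.26 and 1.92 in blood. In the small intestine they were 0.38, -0.46, 1.98, -2.10 and 1.15. Arrays 2 and 4 were far below blood and array 3 was within its range. Ndufaf1 was well above background on 3 of the small intestine arrays. The difference of -1.66 (SE 0.56; limma adjusted p = 0.058) missed the threshold, and with the slide, which equals the replicate number, as a replicate block it passed (limma adjusted p = 0.041). In that blocked fit 4 of the 89 fell in the small intestine, Ndufs1, Ndufaf2, Ndufaf1 and Sdhc, and 13.3% of all genes did. Without arrays 5 of liver and small intestine Ndufaf1 passed as well, with -1.90 (limma adjusted p = 0.027), as 1 of 8 of the 89 that then fell, against 21.6% of all genes. In lung Ndufaf1 gave 0.98, 0.82, 1.11, -1.15 and 1.08, all below blood, with a difference of -1.28 (limma adjusted p = 0.13). Ndufaf3 and Ndufaf4, which act together in the same assembly pathway, had differences of -1.23 and -0.76 in lung (limma adjusted p = 0.12 for each). Ndufaf4 was well above background on all 20 arrays, but Ndufaf3 on only 2 lung arrays, against 4 in blood and 5 in liver. The difference of Ndufaf3 is thus limited by the background. Ndufaf7, an arginine methyltransferase that modifies a complex I subunit, went the other way, with 0.79 in lung (limma adjusted p = 0.14).

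The promoters of 3 of the complex I assembly factors described above are printed as examples of where known activators of respiratory genes have matching letters. RefSeq (GRCm38.p6) gave a promoter for 76 of the 89 genes, taken as 250 bases before to 50 after the annotated start, 1 window a gene. The 3 sequences below are the 250 bases before the start, on the gene's strand, with motif matches in capitals: Ndufaf1 at chr2:119662835-119663084 on the minus strand, Ndufaf2 at chr13:108158626-108158875 on the minus strand, and Ndufaf4 at chr4:24897833-24898082 on the plus strand.
Ndufaf1: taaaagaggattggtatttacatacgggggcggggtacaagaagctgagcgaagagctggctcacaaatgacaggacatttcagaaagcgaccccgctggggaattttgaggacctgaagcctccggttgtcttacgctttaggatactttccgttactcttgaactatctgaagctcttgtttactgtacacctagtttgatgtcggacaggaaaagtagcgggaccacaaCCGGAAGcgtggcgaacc
Ndufaf2: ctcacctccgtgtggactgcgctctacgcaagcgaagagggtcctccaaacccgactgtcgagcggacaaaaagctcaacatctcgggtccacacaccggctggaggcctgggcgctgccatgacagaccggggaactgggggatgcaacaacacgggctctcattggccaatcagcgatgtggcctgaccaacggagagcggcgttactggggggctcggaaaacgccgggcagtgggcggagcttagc
Ndufaf4: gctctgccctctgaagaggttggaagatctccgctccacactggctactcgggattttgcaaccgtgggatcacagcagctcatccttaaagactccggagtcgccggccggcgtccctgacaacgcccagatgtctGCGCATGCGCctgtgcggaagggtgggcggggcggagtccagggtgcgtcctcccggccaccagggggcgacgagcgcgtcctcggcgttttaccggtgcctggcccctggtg
The capitals in Ndufaf1 mark the ETS core CCGGAAG, 18 to 12 bases before the start, and those in Ndufaf4 mark the NRF1 core GCGCANGCG, 113 to 104 bases before the start, where 2 overlapping matches read the same letters on both strands. NRF1 and the ETS factor GABP are known activators of respiratory genes. Ndufaf2 has no match to these letters or to the YY1 core AANATGGC in its window. Counted on both strands, the NRF1 core was in 21 of the 76 windows (27.6%) and in 6.47% of the windows of all 27025 genes. The ETS core was in 20 of the 76 (26.3%, against 9.12%) and the YY1 core in 18 (23.7%, against 6.23%), whereas the TATA box TATAAA was in 6 (7.89%, against 14.2%). The 76 windows are of genes detected on these arrays, whereas the 27025 include genes that were not, so the 2 sets are not alike. The shares over the detected genes alone were not computed. The motif matches are a description of the windows.

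Complex II, succinate dehydrogenase, had all 4 subunits tested, and each was below blood in lung and small intestine without passing the test. It is the one complex encoded wholly by nuclear genes and is also an enzyme of the tricarboxylic acid cycle. The median difference of its subunits was -0.08 in liver, -0.46 in lung and -0.58 in the small intestine. Sdhc, a membrane anchor, gave 3.32, 3.82, 4.31, 4.44 and 4.53 in blood and 3.09, 2.84, 4.02, 2.98 and 3.66 in the small intestine. The groups overlap, and the difference was -0.77 (SE 0.29; limma adjusted p = 0.081, or 0.046 with the replicate block). Sdha, the flavoprotein that oxidises succinate, gave 2.48, 2.99, 3.41, 3.18 and 2.95 in blood and 2.65, 2.13, 2.64, 0.69 and 2.94 in the small intestine. The difference was -0.79 (SE 0.35; limma adjusted p = 0.12), and array 4 was by far the lowest. Sdhb, the iron-sulfur subunit, had a difference of -0.39 (95% interval -0.91 to 0.13).

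The assembly factors of complex II had unlike patterns. Sdhaf4, which helps to mature Sdha, had differences of -0.78 in lung (limma adjusted p = 0.13) and -0.90 in the small intestine (0.074), and in the latter it passed without arrays 5 of liver and small intestine (-1.10, limma adjusted p = 0.024). Sdhaf2, needed for attaching flavin to Sdha, had -1.37 in the small intestine (SE 0.54; limma adjusted p = 0.09), and -1.86 (0.0092) without arrays 5 of liver and small intestine. Sdhaf2 was well above background on 4 blood, 4 liver, 2 lung and 2 small intestine arrays. It thus entered the tests through blood and liver only, and its differences are limited by the background. Sdhaf1, which serves the iron-sulfur subunit, had a pattern of its own. It gave 0.88, 0.81, 0.82, -1.19 and 0.14 in lung and 1.64, 2.09, 1.30, 2.04 and 2.92 in liver, so that all lung arrays were below all liver arrays. The difference was -1.71 (SE 0.50; limma adjusted p = 0.18). In the small intestine it gave 1.63, 1.58, 3.51, 0.53 and 2.15, which is 1.59 above lung (SE 0.50; limma adjusted p = 0.24).

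**Figure D2:**
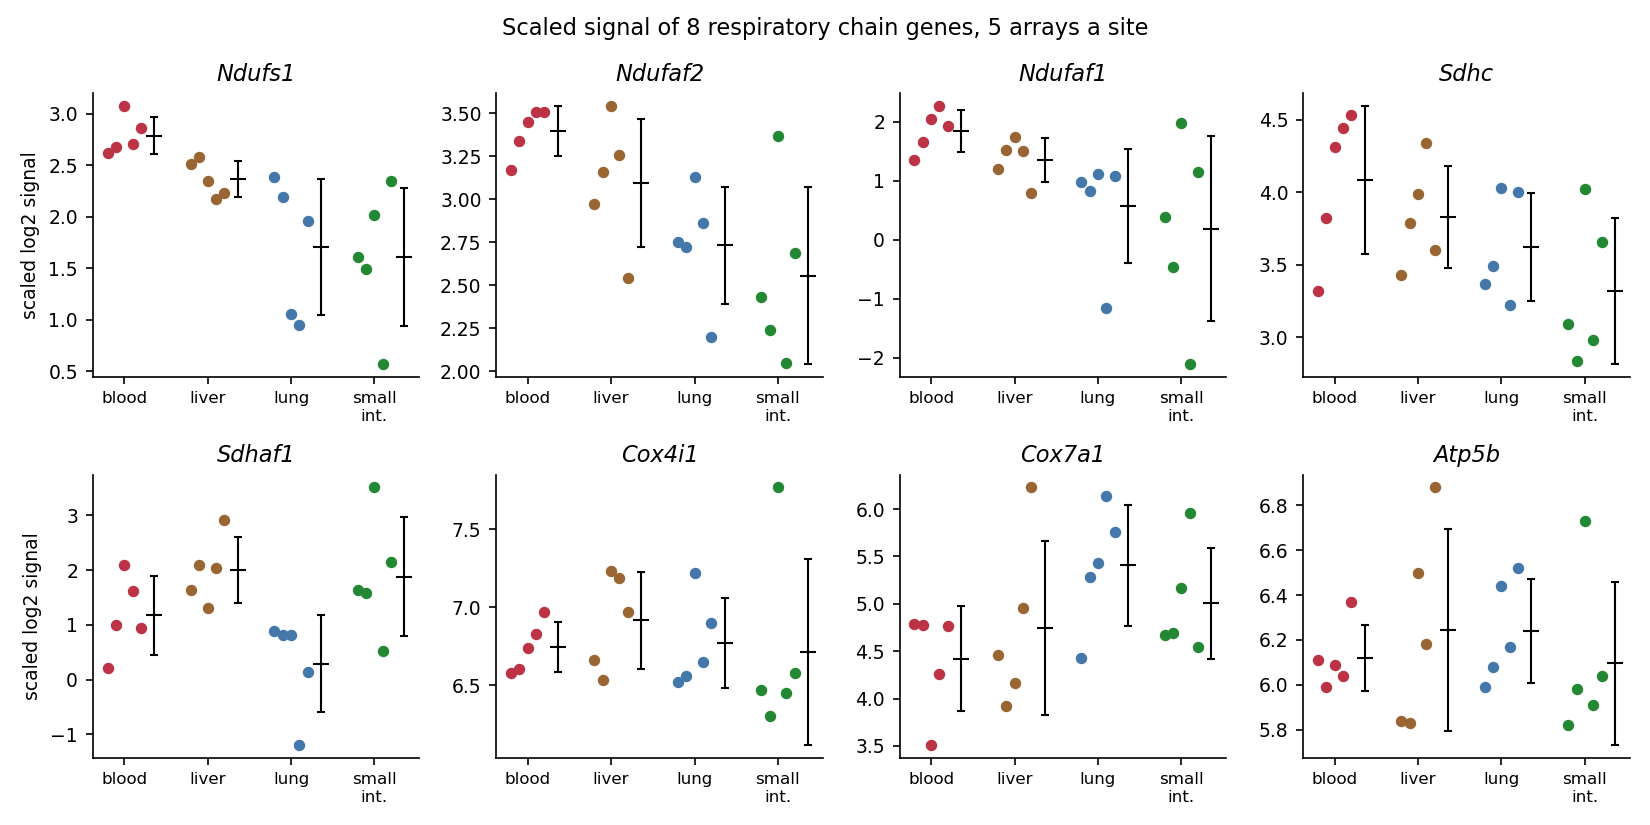
Scaled log2 signal of 8 genes (vertical axes, each on its own scale) on the 5 arrays of blood, liver, lung and small intestine, drawn from array 1 to 5 within a site, with the mean and SD (n = 5) beside them. Ndufs1 is higher on all blood arrays (2.62 to 3.07) than on any organ array (0.57 to 2.58), whereas Cox4i1 and Atp5b overlap between all sites, with small intestine array 3 the highest of its site in both.

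Complex III, the cytochrome bc1 complex, had 8 subunits, all well above background on every array of each site, and none passed. The median difference was 0.07 in liver, -0.20 in lung and -0.26 in the small intestine. Uqcrfs1, the Rieske iron-sulfur protein, gave 4.78, 4.84, 5.36, 5.59 and 5.46 in blood and 4.79, 4.30, 6.02, 4.49 and 4.90 in the small intestine. The difference was -0.31 (SE 0.30; limma adjusted p = 0.41), and array 3 was the highest of all 20. Uqcrc1, a core structural subunit, had a difference of -0.57 in the small intestine (SE 0.26; limma adjusted p = 0.14), with arrays of 4.56, 4.48, 5.81, 4.30 and 4.71. Uqcrh, the hinge protein that contacts cytochrome c, had 0.39 in liver (95% interval -0.21 to 0.98) and 0.04 in the small intestine (-0.56 to 0.63). Uqcrq, a small accessory subunit, gave 4.17 on blood array 1 and 5.61 to 5.71 on the other blood arrays.

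Complex IV, cytochrome c oxidase, had 15 of its 20 genes tested, and none passed. The median difference was 0.15 in liver and -0.25 in both lung and small intestine. Cox4i1, the ubiquitous form of subunit 4, gave 6.58, 6.60, 6.74, 6.83 and 6.97 in blood, 6.66, 6.53, 7.23, 7.19 and 6.97 in liver and 6.52, 6.56, 7.22, 6.65 and 6.90 in lung. In the small intestine it gave 6.47, 6.30, 7.77, 6.45 and 6.58. The sites overlap fully, and the difference between small intestine and blood was -0.03 (95% interval -0.57 to 0.51). Cox5a and Cox6a1, other nuclear subunits, had differences of -0.36 (-0.92 to 0.21) and -0.10 (-0.61 to 0.41) there. Cox7a2l, a factor that joins complexes III and IV into supercomplexes, had 0.52 in liver (-0.21 to 1.25) and -0.05 in the small intestine (-0.78 to 0.68). Ndufa4, named for complex I and now placed in complex IV, had -0.73 in the small intestine against blood (SE 0.26; limma adjusted p = 0.069), with signals of 4.55 to 5.29 in blood and 3.72 to 4.83 in the small intestine. Without arrays 5 of liver and small intestine it was -0.82 (limma adjusted p = 0.036).

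Isoforms of complex IV known from other tissues were mostly not detected. Cox4i2, the lung and hypoxia form, Cox8b, a muscle form, Cox7b2 and Cox8c, testis forms, and Ndufa4l2, a hypoxia-induced relative of Ndufa4, were not well above background on 4 arrays of any site. Cox6a2, the heart and muscle form of subunit 6a, ranged from -0.94 to 1.91 and was well above background on 17 of the 20 arrays. Cox6b2, another such isoform, was well above background on 11 arrays, among them all 5 of liver. Cox7a1, the heart and muscle form of subunit 7a, was bright. It gave 4.79, 4.78, 3.51, 4.26 and 4.77 in blood and 4.46, 3.92, 4.16, 4.96 and 6.23 in liver. Lung arrays gave 4.43, 5.28, 5.43, 6.14 and 5.76, and those of the small intestine 4.67, 4.69, 5.17, 5.96 and 4.54. The sites overlap. Its difference was 0.98 in lung against blood (SE 0.42; limma adjusted p = 0.13). The highest values were on liver array 5, lung array 4 and small intestine array 4, whose 75th percentiles of signal, 823, 856 and 1003, were among the 4 lowest of the 20 arrays, and the same 3 arrays were the highest for Ndufaf7 (6.28, 6.24 and 6.15). The part of signal depth in these values was not tested.

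Complex V, the ATP synthase, had the median closest to blood among the 5 complexes in lung and small intestine, but not in liver. All 17 tested subunits were well above background on every array, and none passed. The median difference was 0.10 in liver, -0.14 in lung and -0.18 in the small intestine. Atp5b, the catalytic beta subunit, gave 6.11, 5.99, 6.09, 6.04 and 6.37 in blood and 5.82, 5.98, 6.73, 5.91 and 6.04 in the small intestine, a difference of -0.02 (95% interval -0.51 to 0.46). Atp5a1, the alpha subunit, had a difference of -0.37 (-0.95 to 0.22). Atp5g1, one of the genes for the membrane ring, had -0.08 (-0.58 to 0.42). Atp5e, the epsilon subunit, had 0.28 in liver (-0.22 to 0.78) and -0.09 in the small intestine (-0.59 to 0.40). Atp5h, a subunit of the stalk, ranged from 6.29 to 6.55 in blood and from 6.20 to 7.21 in the small intestine.

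Between the 3 organs no respiratory gene passed. In lung against liver the median of the 89 genes was -0.29, against -0.25 for all genes, 0.285% of all genes were called, and 6 of the 89 (6.74%) had an unadjusted limma p under 0.05, against 14.8% of all genes. There 2 genes, Sdhaf1 and the complex I accessory subunit Ndufa2, had all lung arrays below all liver arrays, 2.25% against 4.02% of all genes. In small intestine against liver the median was -0.38, against -0.34, with 0% of all genes called; 1776 of all genes (22.0%) and 12 of the 89 (13.5%) had an unadjusted limma p under 0.05. These medians became -0.15 and -0.12 when scaled on the probes detected everywhere, and -0.69 and -0.65 with median scaling. Without arrays 5 of liver and small intestine 3 of the 89 fell in that comparison, where 14.6% of all genes then fell: Ndufa4 with -0.91 (limma adjusted p = 0.04), Sdhaf2 with -1.95 (0.014) and Sdhaf4 with -1.05 (0.049). Of these, Sdhaf2 was well above background on only 2 small intestine arrays. In small intestine against lung the median was -0.11, against -0.15, with 0.149% of all genes called. There 2 of the 89 (2.25%) had an unadjusted limma p under 0.05, against 8.24% of all genes, and the median was 0.12, against 0.08, when scaled on the probes detected everywhere.

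The counts were also set out by brightness. When the 8057 genes were split into 4 bins of like size by mean signal, 67 of the 89 respiratory genes (75.3%) fell in the brightest one. In the small intestine 6.55% of the genes of that bin were lower than blood, with a median difference of -0.17. None of the 67 respiratory genes there was called, and their median was -0.31. In the bin below it, which holds Ndufs1 and Ndufaf2, 15.4% of all genes and 2 of 8 respiratory genes were lower, with medians of -0.59 and -0.56. Among the genes of the brightest bin in lung, the medians were -0.20 for the 67 respiratory genes and -0.07 for all. In that bin the median of the respiratory genes was thus below that of all genes at both sites. In the bin below it the small intestine medians were close, and those in lung were -0.63 for the respiratory genes and -0.47 for all. The next bin and the dimmest one held 7 respiratory genes each. Their medians there were -0.60 and -0.63 in the small intestine, against -0.50 and 0.08 for all genes. In lung they were -0.78 and -0.87, against -0.49 and 0.02. In the dimmest bin Ndufaf3, Ndufaf8 and Sdhaf2 entered the tests through blood and liver only, and Cox6b1 and Cox6b2 through liver only. Their values at the other sites are limited by the background, so the medians of that bin are not read as a result about these genes.

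The level of the respiratory genes varied more from array to array than between the site means, which were 4.51 for blood, 4.55 for liver, 4.23 for lung and 4.15 for the small intestine. The mean of the 89 genes was 4.12, 4.30, 4.74, 4.66 and 4.71 for blood, 4.28, 4.43, 4.82, 4.82 and 4.38 in liver, 4.23, 4.18, 4.47, 3.90 and 4.35 in lung and 4.12, 3.81, 4.94, 3.71 and 4.19 in the small intestine. Small intestine array 3 was the highest of all 20, and small intestine array 4 the lowest. The same 2 arrays were the highest (5.20) and the lowest (3.29) in the mean of the CD8 T cell genes, and array 4 was the highest in the Paneth cell genes (7.24), whereas array 3 had 2.44. Lung array 4, the lowest lung array for the respiratory genes, was also the lowest for CD8 T cell genes (4.18) and the highest for alveolar macrophage genes (5.49). In bulk RNA, fewer cells of a type and less RNA per cell cannot be told apart, and the part of other cells in these differences was not tested. Slide by slide, the median difference of the 89 genes between small intestine and blood was -0.07, -0.45, 0.26, -1.03 and -0.51 on slides 1 to 5. The direction was thus shared by 4 of the 5 slides. All genes had the same signs, with medians of -0.21, -0.54, 0.08, -0.84 and -0.25. Relative to all genes the 89 were higher on slides 1, 2 and 3 and lower on slides 4 and 5 (0.14, 0.09, 0.18, -0.19 and -0.26). Without small intestine array 3, the number of respiratory genes that fell there went from 2 to 17, while the number of all genes lower or higher went from 873 to 1914, with 21.9% of all genes lower. Those 17 added Ndufv1 (-0.90, limma adjusted p = 0.038), Ndufs7, Sdhd, Uqcrc1 (-0.83, 0.018) and Atp5j, among others.

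**Figure D3:**
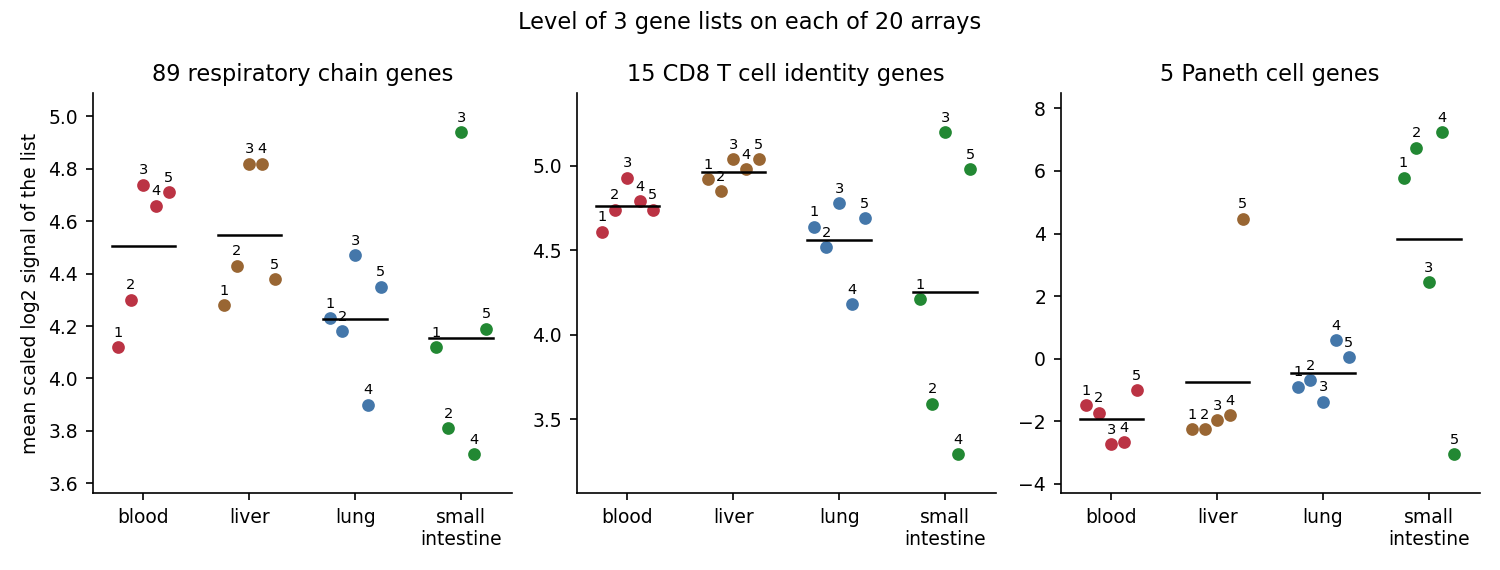
Mean scaled log2 signal (vertical axes) of the 89 respiratory chain genes, 15 CD8 T cell identity genes and 5 Paneth cell genes on each array, with the replicate number above each point and the mean of the site as a bar. Small intestine array 4 is lowest in the first and second panels (3.71 and 3.29) and highest in the third (7.24), and liver array 5 (4.48) and small intestine array 5 (-3.06) stand apart from their sites in the third.

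Among other genes of mitochondrial energy metabolism the counts were these, with the difference between lists not tested; of all genes 9.92% fell in the small intestine and 0.298% in lung. Of 71 tested mitochondrial ribosomal proteins, which translate the subunits encoded by mitochondrial DNA, 10 fell in the small intestine, with a median of -0.59, and 2 fell in lung, with a median of -0.46. Of 13 tested transcription factors and polymerase components for respiratory genes 3 fell: Polrmt, the mitochondrial RNA polymerase, by 1.13 (SE 0.31; limma adjusted p = 0.031), Tfb1m, which methylates mitochondrial ribosomal RNA, by 1.92 (SE 0.55; limma adjusted p = 0.036), and Sp1 by 0.94 (SE 0.27; limma adjusted p = 0.037). Of 18 tested genes of the tricarboxylic acid cycle 2 fell, Dlst by 0.74 (limma adjusted p = 0.029) and Fh1, fumarase, by 0.79 (limma adjusted p = 0.046). Of 15 further assembly factors of the respiratory complexes 1 fell, Acad9, a complex I assembly protein, by 1.62 (limma adjusted p = 0.019). Of 17 cytochrome c oxidase assembly genes 1 fell, Cmc2, by 1.35 (limma adjusted p = 0.035). Of 19 genes for cytochrome c and carriers 1 fell, Dhodh, the ubiquinone-linked enzyme of pyrimidine synthesis, by 1.12 (limma adjusted p = 0.027). None of 20 glycolysis genes passed, with a median of -0.48. None of 78 cytosolic ribosomal proteins passed, and their median of 0.08 was above that of all genes.

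**Figure D4:**
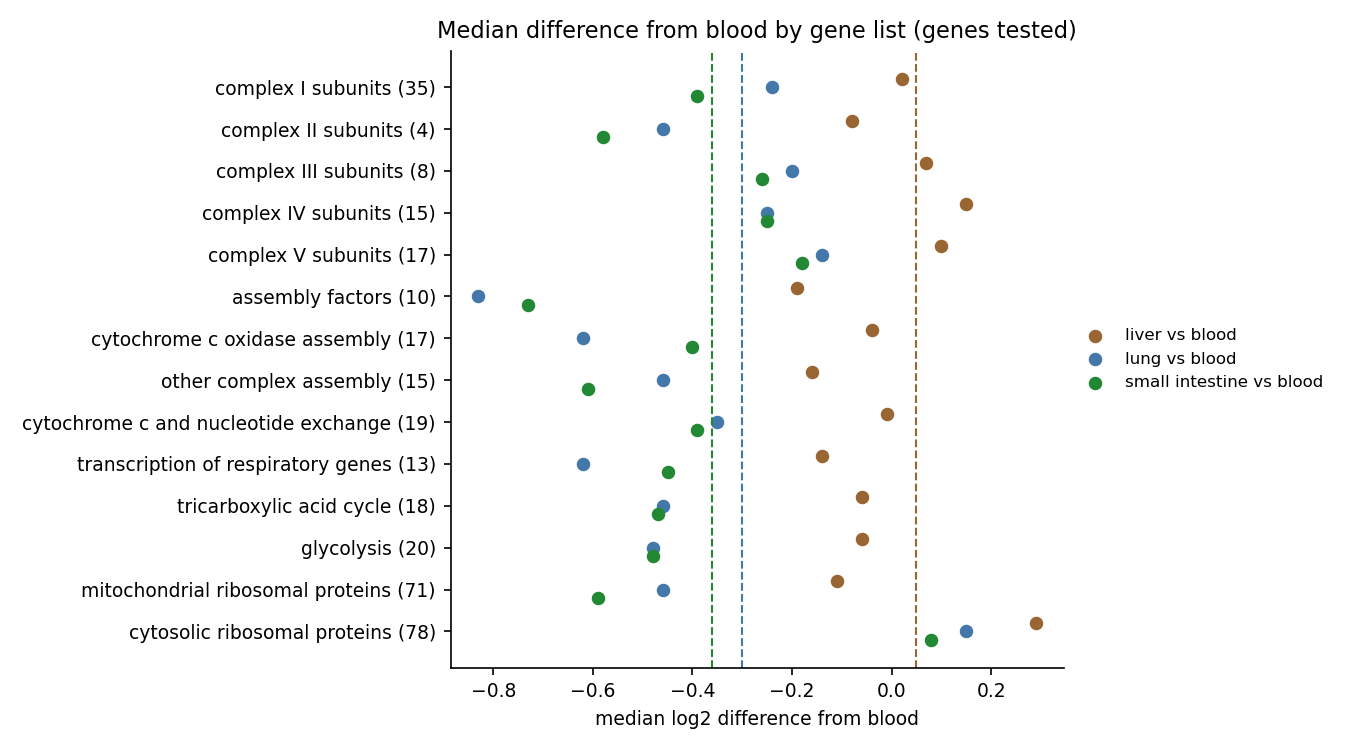
Median log2 difference from blood (horizontal axis) of each gene list, with the number of genes tested in brackets, for liver, lung and small intestine; dashed lines are the medians of all 8057 genes. Complex V subunits (-0.18) lie to the right of the small intestine line (-0.36), assembly factors (-0.73) and mitochondrial ribosomal proteins (-0.59) to its left, and cytosolic ribosomal proteins (0.08) farthest to the right.

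Among the respiratory genes outside the tests, Cox4i2, Cox7b2, Cox8b, Cox8c, Ndufa4l2, Ndufaf5 and Sdhaf3 were well above background on none of the 20 arrays. Just inside the limit, with 4 of 5 arrays at their best site, were Cox6b1, Ndufaf6 and Sdhaf2. Probes of 1 gene did not always go together: of 21 genes with at least 2 probes well above background on 16 arrays or more, 7 had probes of opposite sign between small intestine and blood. Ndufs1, Ndufaf1 and Ndufaf2 have 1 probe each. The RefSeq table also lists 19 pseudogenes with symbols of this kind, which name copies of 10 of these genes, and a probe may read such a copy.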

How the data were processed

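Per the file headers, spots were read with Feature Extraction 11.0.1.1 and each processed signal is an intensity with background already subtracted; the submitters' notes give version 10.7, and Partek. The value table the authors deposited holds log2 values, within 0.000108 (median) of quantile-normalized log2 processed signal. Control and non-uniform spots were left out, spots of a probe were averaged, and log2 signals were scaled to the 75th percentile of each array. Probes were named through RefSeq: 27508 of 39429 had 1 symbol, and the brightest probe stood for its gene. limma 3.58.1 (R 4.3.3) fitted 1 coefficient a site over all 20 arrays (16 residual degrees of freedom) to 8057 genes, with Benjamini-Hochberg adjustment over all of them and a threshold of 0.05. The procedure was tested on simulated data. Named genes are a fixed set of core subunits and tissue isoforms, the 6 lowest p-values in each direction for each organ against blood, and up to 3 genes per pathway list; Cox6b1, Ndufs7, Sdhd, Atp5j, Sdhaf2, Ndufaf8 and Ndufa2 were named after their values were seen. The members and lists were chosen with earlier results of these data known. Slide and replicate number coincide on all 20 arrays; deviations of same-numbered arrays correlated with a median r of 0.16 over 30 pairs (-0.37 to 0.56), so the numbers were not taken to pair samples, and the slide as a block was an alternative. The number of arrays limits the precision. Alternatives varied the scaling, background correction, filter, probe choice, block and arrays.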

Additional observations from a re-analysis of the deposited data

Results flagged for a closer look

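In 140 sets of 5 arrays, 34 genes and the mean of the 89 genes at 4 sites, 10 values stood far from the other 4 of their site; chance gives about 5% of sets, and the genes share arrays. Of these, 6 were on small intestine array 3: Cox4i1 at 7.77 against 6.30 to 6.58, Cox6a1 at 7.41 against 6.19 to 6.35, Uqcrc1 at 5.81 against 4.30 to 4.71, Uqcrq at 6.31 against 5.16 to 5.48, Atp5b at 6.73 against 5.82 to 6.04 and Atp5h at 7.21 against 6.20 to 6.48. All 6 were higher than the other intestinal arrays. The remaining 4 were Ndufaf1 on lung array 4 (-1.15, against 0.82 to 1.11), Cox6a2 on liver array 3 (1.91, against -0.40 to 0.05), Uqcrq on blood array 1 (4.17, against 5.61 to 5.71) and Ndufs8 on blood array 2 (1.71, against 2.23 to 2.43).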

How the results depend on the processing

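The number of respiratory genes that fell in the small intestine against blood, 2 of 89, was 0 when arrays were scaled on the probes detected everywhere (19 of all genes called), 0 with median scaling, 0 with no filter on dim probes, 0 when only the 10 arrays of that comparison were fitted, 1 after quantile normalization, 1 in the authors' deposited table, 4 with the replicate block and 8 without arrays 5 of liver and small intestine, with or without the other scaling. Leaving out 1 array of these sites at a time gave 0 to 17: 17 without small intestine array 3, 7 without array 5, and 0 without array 1, 2 or 4 or without blood array 2, 3 or 5. Without small intestine array 2 no gene of all 8057 passed in limma. Of all genes, 9.92% were lower there in the main fit and 13.3% with the replicate block. At the main scaling the share was 21.6% without arrays 5 of liver and small intestine, and 21.9% without small intestine array 3. In small intestine against liver it was 14.6% without those arrays 5. For most other settings the share is not given, so their counts are not read as particular to the respiratory genes. Lung against blood, with 0, gave 4 without those arrays 5 under the other scaling, and 0 to 1 with 1 array left out, 1 (Ndufs1) without lung array 1. Small intestine against liver, with 0, gave 3 without those arrays 5 under either scaling, and 0 to 1 with 1 array left out, 1 (Sdhaf2) without small intestine array 5. The median of the 89 genes relative to all genes in lung against blood, 0.05, was -0.12 after quantile normalization, -0.12 in the deposited table and -0.13 after normexp on median signals. With no filter on dim probes it was -0.67 there, -0.69 in lung against liver, -0.46 in small intestine against blood and -0.54 in small intestine against liver, where the all-gene median then includes genes not above background. Median scaling moved the all-gene median in small intestine against blood from -0.36 to -0.59 and quantile normalization to -0.22. The replicate block changed the count of no other comparison. Normexp on mean signals was not run and was replaced by normexp on median signals, chosen after seeing the data; it gave 3. None of the named genes called by limma reversed its direction under any alternative run. Genes near background are limited by signal, and a lone p-value near the threshold by 5 arrays a site.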
